A study of Homo sapiens with 8 samples.

Results

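The tyrosine kinase SYK, 4 kinases of the Src family (LYN, FYN, SRC and YES1) and 5 proteins that act with them (CBL, CBLB, PLCG1, VAV2 and VAV3) were followed at the transcript level in ovarian carcinoma cells with and without SYK. These 10 genes were chosen for their place in SYK and Src signalling, with earlier results of these data known. Each matched 1 of the 27757 loci in the deposited table through the RefSeq accessions listed there. All 10 reached 1 FPKM (fragments scaled to transcript length and library size) in at least 2 of 8 libraries and were tested among 12112 such loci. FYN did so in 5 libraries, 4 of them from SYK-KO cells, and the other 9 genes in all 8. The cells were OVISE, a long-standing human line from a clear cell carcinoma of the ovary, and RNA-seq was made from total RNA. The groups were SYK-knockout cells treated with epidermal growth factor (SYK-KO EGF), wild-type cells treated in the same way (SYK-WT EGF), untreated knockout cells (SYK-KO) and untreated wild-type cells (SYK-WT), with 2 libraries each. EGF, which activates the receptor tyrosine kinase EGFR, was given at 50 ng/ml and the cells were harvested at 24 h. Per the labels' protocols, the knockout cells had been transfected with a Cas9 nickase and paired guides, selected with puromycin and grown from single cells, and loss of SYK was checked by immunoblot. How many knockout clones entered the libraries, and whether parental cells or a clone served as SYK-WT, is not given in the sources used here, so genotype and clone cannot be told apart. Separate cultures are not stated for the libraries of a group. The p-values below therefore rest on the spread between these 8 libraries alone, and that spread may be technical.

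SYK and the Src kinases are non-receptor tyrosine kinases. In immune cells a Src kinase phosphorylates the ITAM motif of a receptor chain, SYK docks on that motif through its paired SH2 domains, and the active kinases phosphorylate VAV exchange factors and phospholipase C gamma. In epithelial cells, which as a rule have few ITAM receptors, Src kinases work beside EGFR and at cell adhesions, and the CBL proteins are ubiquitin ligases that tag activated EGFR, Src kinases and SYK for breakdown.

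The guides given in the labels are shown because they define the knockout and bear on how the SYK transcript can be read. Both matched exon 2 of SYK, on chromosome 9 in GRCh38 (GENCODE 29), in all 5 annotated transcripts, of which 4 are coding. The guide called top strand-nicking lay on the minus strand at chr9:90844042-90844061 beside the PAM AGG, and the one called bottom strand-nicking on the plus strand at chr9:90844080-90844099 beside the PAM CGG. The nicks fall after coding bases 146 and 198, 52 coding bases apart. The plus strand around them, chr9:90844019-90844122, has both guide sites with their PAMs in capitals.
Top strand-nicking guide: cggacagggcgaagccaccc
Bottom strand-nicking guide: cacaccactacaccatcgag
SYK exon 2: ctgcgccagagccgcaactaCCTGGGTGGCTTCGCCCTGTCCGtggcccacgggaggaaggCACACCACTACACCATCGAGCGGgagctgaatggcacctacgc

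The libraries were estimated to hold 22800000 to 26900000 fragments, which holds if FPKM had been scaled by each library's own fragments. Replicates differed by a median of 0.0669 to 0.0828 on the log2 scale in 3 groups and by 0.150 in SYK-WT. Epithelial markers reached 1 FPKM for 6 of 6 genes in every library, and summed to 13286 to 14611 FPKM in SYK-KO EGF, 13130 to 13419 in SYK-WT EGF, 8936 to 9815 in SYK-KO and 7116 to 7957 in SYK-WT. KRT8 and KRT18, keratins whose listed ranges overlap, held most of that sum. CDH1, which encodes E-cadherin, went the other way by genotype, at 30.7 to 35.6 FPKM in SYK-KO EGF, 61.4 to 61.9 in SYK-WT EGF, 38.0 to 44.5 in SYK-KO and 84.7 to 90.8 in SYK-WT, and the untreated SYK-KO libraries were also lower for CLDN4 and EPCAM. Clear cell markers did so for 4 or 5 of 5 genes, and summed to 456 to 501 FPKM in SYK-KO EGF, 494 to 520 in SYK-WT EGF, 524 to 536 in SYK-KO and 579 to 688 in SYK-WT. Haematopoietic markers summed to 5.90 to 7.35 FPKM over 8 genes in SYK-KO EGF, 6.34 to 6.65 in SYK-WT EGF, 3.45 to 3.81 in SYK-KO and 5.44 to 5.83 in SYK-WT. LAPTM5 alone held 2.78 to 6.03 FPKM of that sum, with PTPRC, which encodes the pan-leukocyte CD45, at 0.0216 FPKM or less in every library. The 7 ITAM-bearing receptors and adaptors summed to 0.689 to 1.93 FPKM (1.39 to 1.45 in SYK-KO EGF, 0.692 to 0.960 in SYK-WT EGF, 1.37 to 1.93 in SYK-KO and 0.689 to 0.860 in SYK-WT), with TYROBP listed at 0 in all 8 libraries. None of the 7 passed the filter on low values. These sums moved with EGF or genotype, and their part in the results below was not tested.

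The 10 transcripts covered a wide range of levels. PLCG1, a phospholipase, and SRC led in all 4 groups, with means of 50.7 and 36.8 FPKM in SYK-KO EGF, 48.4 and 37.9 in SYK-WT EGF, 45.7 and 36.8 in SYK-KO, and 43.0 and 38.0 in SYK-WT. YES1 and VAV2 came next and exchanged places: YES1 was the higher in 3 groups, and in SYK-WT cells VAV2 averaged 23.4 FPKM and YES1 23.0 FPKM, with overlapping libraries. The other 6 genes had at most 15.0 FPKM in any library. SYK was the lowest of the 10 in both knockout groups and FYN in both wild-type groups. The highest library exceeded the lowest by 8.77-fold for FYN, 2.67-fold for CBLB, 2.52-fold for VAV3, 1.90-fold for SYK and 1.89-fold for CBL, and by 1.19-fold for SRC.

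**Figure D1:**
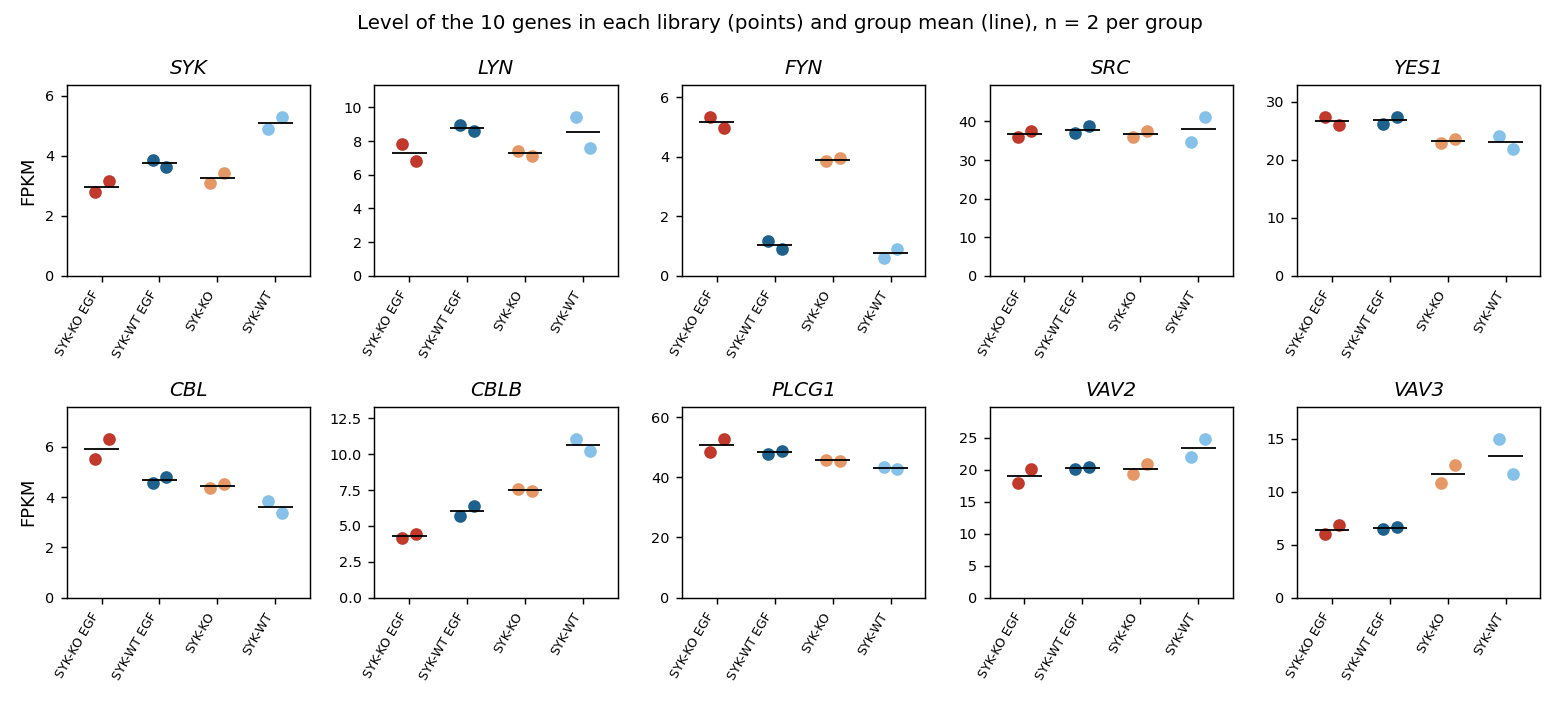
FPKM of the 10 genes in each of the 8 libraries (points, 2 per group) with the group mean (line); every vertical axis starts at 0 and has its own range. FYN stands at 3.85 to 5.35 FPKM in the 4 SYK-KO libraries and at 0.610 to 1.16 FPKM in the 4 SYK-WT libraries, and CBLB at 4.15 to 4.44 FPKM in SYK-KO EGF and at 10.2 to 11.1 FPKM in SYK-WT.

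The comparison of knockout with wild-type cells asked which partners differ where SYK is missing. FYN was the member with the largest difference, 4.99-fold higher in the knockout cells with EGF and 5.14-fold higher without it. SYK and CBLB transcripts were lower in both settings. CBL was higher by a similar amount in both and passed the test with EGF alone, near the threshold. The 3 Src kinases that make up most of the family's transcript did not pass the test.

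SYK (chr9:93563962-93660842, hg19) was read at 2.80 and 3.16 FPKM in SYK-KO EGF, 3.88 and 3.62 FPKM in SYK-WT EGF, 3.11 and 3.43 FPKM in SYK-KO and 4.91 and 5.30 FPKM in SYK-WT. The transcript was thus present in every knockout library. In bulk RNA, fewer cells with a transcript and less of it per cell cannot be told apart. Both knockout libraries lay below both wild-type libraries with and without EGF. The log2 fold change was -0.52 ± 0.086 untreated (SE, n = 2 libraries in each group; limma and Benjamini-Hochberg, adjusted p = 0.00289) and -0.26 ± 0.086 with EGF (limma adjusted p = 0.0436). An FPKM over the whole gene does not report the frame of the transcript around the guide sites, so this value is no check of the knockout. Under 7 of 15 alternatives the call with EGF ended, with adjusted p of 0.0621 to 0.216, and in the authors' deposited table its q-value was 0.200, against 0.00428 for the untreated comparison.

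Among 7789 loci with a mean of at least 5 FPKM, the 5 whose log2 values followed those of SYK most closely across the 8 libraries were MTOR, SFPQ, BTBD3, CNNM4 and BCLAF1, with Pearson's r of 0.985 to 0.989. All 8 points share the same genotype and EGF groups, so r describes a shared order of groups. MTOR, the kinase of the mTOR complexes, was at 4.62 and 5.06 FPKM in SYK-KO EGF, 6.04 and 6.03 FPKM in SYK-WT EGF, 5.09 and 5.18 FPKM in SYK-KO and 7.37 and 7.94 FPKM in SYK-WT. Of the other members, VAV2 had the highest r with SYK (0.92), followed by CBLB (0.83), while FYN had -0.85 and CBL -0.83.

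FYN (chr6:111981535-112194655, hg19), a Src kinase with roles in T cells, brain and cell adhesion, was the one member whose groups were separated by genotype by a wide gap. It had 5.35 and 4.97 FPKM in SYK-KO EGF, 1.16 and 0.908 FPKM in SYK-WT EGF, 3.85 and 3.96 FPKM in SYK-KO and 0.610 and 0.908 FPKM in SYK-WT. The lowest knockout library stood well above the highest wild-type library. Of the wild-type libraries, SYK-WT EGF replicate 1 alone reached 1 FPKM. FYN thus entered the fit through the groups where it was high, and its differences are given as a description. The ratio of mean FPKM was 5.14 untreated and 4.99 with EGF. On the log2(FPKM + 1) scale, which understates the change of low genes, the fold change was 1.48 ± 0.108 untreated and 1.60 ± 0.108 with EGF (SE, n = 2 libraries per group). With a pseudocount of 0.1 FPKM it was 2.24 and 2.22. From its shortest matching transcript of 2009 bases, FYN was estimated to rest on about 204 to 256 fragments in knockout libraries and 33 to 62 in wild-type libraries. FYN is among the genes counted below as higher in knockout cells.

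SRC, YES1 and LYN held the bulk of the Src kinase transcripts. SRC (chr20:35973088-36033835, hg19), the founding member of the family, was read at 36.1 and 37.5 FPKM in SYK-KO EGF, 36.9 and 38.9 FPKM in SYK-WT EGF, 36.1 and 37.6 FPKM in SYK-KO and 34.8 and 41.2 FPKM in SYK-WT. The 4 groups overlapped. SRC differed by -0.04 between genotypes, with a 95% interval of -0.24 to 0.16 both untreated and with EGF, on the log2 scale (limma adjusted p = 0.744 and 0.714). YES1 (chr18:721592-812327, hg19), a widely expressed Src kinase, differed between genotypes by 0.02 untreated and -0.01 with EGF on the log2 scale, with 95% intervals of -0.15 to 0.18 and -0.17 to 0.15. LYN (chr8:56792386-56925006, hg19), best known for its part in B-cell receptor signalling, had 7.81 and 6.79 FPKM in SYK-KO EGF, 8.95 and 8.57 FPKM in SYK-WT EGF, 7.44 and 7.11 FPKM in SYK-KO and 9.44 and 7.59 FPKM in SYK-WT. Its knockout libraries lay below the wild-type ones in both settings, by -0.20 untreated and -0.24 with EGF on the log2 scale, without passing the test (limma adjusted p = 0.176 and 0.106). LYN passed with EGF under 5 alternatives, at adjusted p of 0.0252 to 0.0460, and untreated when SYK-WT replicate 2 was left out (0.0160).

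Summed over SRC, YES1, LYN and FYN, the level was 76.5 and 75.2 FPKM in SYK-KO EGF, 73.3 and 75.8 FPKM in SYK-WT EGF, 70.3 and 72.2 FPKM in SYK-KO and 68.9 and 71.5 FPKM in SYK-WT. FYN made up 6.99% and 6.61% of this sum in SYK-KO EGF, 1.59% and 1.20% in SYK-WT EGF, 5.47% and 5.48% in SYK-KO and 0.885% and 1.27% in SYK-WT. SRC held 47.1% to 57.6% of the sum across the libraries and YES1 30.5% to 36.2%, so the higher FYN level in knockout cells was a small share of all Src kinase transcript. Relative to SYK, FYN was the more abundant in every knockout library, with 1.91 and 1.57 times the FPKM of SYK in SYK-KO EGF and 1.24 and 1.15 times in SYK-KO, against 0.300 and 0.251 times in SYK-WT EGF and 0.124 and 0.171 times in SYK-WT.

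CBLB (chr3:105374305-105588266, hg19), the CBL ligase that restrains lymphocyte activation, was at 4.15 and 4.44 FPKM in SYK-KO EGF, 5.70 and 6.37 FPKM in SYK-WT EGF, 7.55 and 7.41 FPKM in SYK-KO and 11.1 and 10.2 FPKM in SYK-WT. No libraries of different groups overlapped, and the level was lowest in SYK-KO EGF and highest in SYK-WT. CBLB fell in knockout against wild-type cells by a log2 fold change of -0.46 ± 0.080 untreated (SE, n = 2 libraries per group; limma adjusted p = 0.00347) and -0.41 ± 0.080 with EGF (limma adjusted p = 0.00528). No alternative run ended these calls, and the q-values of the authors' deposited table were 0.00822 and 0.0254. CBL (chr11:119076986-119178859, hg19), the main ligase of activated EGFR, was at 5.51 and 6.34 FPKM in SYK-KO EGF, 4.56 and 4.79 FPKM in SYK-WT EGF, 4.38 and 4.53 FPKM in SYK-KO and 3.84 and 3.35 FPKM in SYK-WT. Its knockout libraries lay above the wild-type ones in both settings. The log2 fold change was 0.28 ± 0.090 with EGF (limma adjusted p = 0.0349), a call that ended under 6 of 15 alternatives (adjusted p up to 0.197), and 0.25 ± 0.090 untreated (limma adjusted p = 0.0596), which passed with library medians equalised (0.0492) or without SYK-WT replicate 1 (0.0241). The authors' deposited table lists q-values of 0.133 and 0.193 for CBL.

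The ratio of CBLB to CBL was 0.754 and 0.700 in SYK-KO EGF, 1.25 and 1.33 in SYK-WT EGF, 1.73 and 1.64 in SYK-KO and 2.88 and 3.05 in SYK-WT. CBLB was the more abundant of the pair in 3 groups and CBL in SYK-KO EGF. Neither was the main CBL transcript of these cells: CBLC, the epithelial CBL ligase, held 54.1% to 74.5% of the FPKM summed over the 3 ligases and was not called in any comparison.

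PLCG1, VAV2 and VAV3 did not pass the test for genotype in either setting. PLCG1 (chr20:39657458-39804357, hg19), which turns a membrane lipid into the second messengers diacylglycerol and inositol trisphosphate, was at 48.4 and 52.9 FPKM in SYK-KO EGF, 47.9 and 48.9 FPKM in SYK-WT EGF, 45.7 and 45.6 FPKM in SYK-KO and 43.4 and 42.7 FPKM in SYK-WT. Its range also holds PLCG1-AS1, MIR6871 and TOP1, and since strand is not given, their reads cannot be told apart where they overlap. The genotype difference of PLCG1 was 0.08 untreated and 0.06 with EGF on the log2 scale, with 95% intervals of -0.06 to 0.23 and -0.08 to 0.21. VAV2 (chr9:136627016-136857446, hg19), an exchange factor of the same family as VAV3, was at 17.9 and 20.1 FPKM in SYK-KO EGF, 20.0 and 20.4 FPKM in SYK-WT EGF, 19.4 and 20.8 FPKM in SYK-KO and 21.9 and 24.8 FPKM in SYK-WT. Its untreated knockout libraries lay below the wild-type ones by -0.21 on the log2 scale (limma adjusted p = 0.0874), and with EGF the libraries overlapped. VAV2 passed untreated when SYK-WT replicate 1 was left out (adjusted p = 0.0218). VAV3 differed by -0.17 untreated and -0.04 with EGF on the log2 scale (limma adjusted p = 0.298 and 0.833), and its libraries overlapped in both settings. VAV3 passed untreated when SYK-WT replicate 2 was left out (adjusted p = 0.0266).

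Among the 10 genes, 1 rose and 2 fell in knockout against wild-type cells when untreated, where 40.5% of all loci tested were called (20.3% rose and 20.2% fell). With EGF 2 rose and 2 fell, where 43.6% of all loci were called (21.1% rose and 22.5% fell). The members were therefore called about as often as the loci at large. Their median log2 difference was -0.10 untreated and -0.04 with EGF, beside -0.01 and -0.02 over all loci tested.

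**Figure D2:**
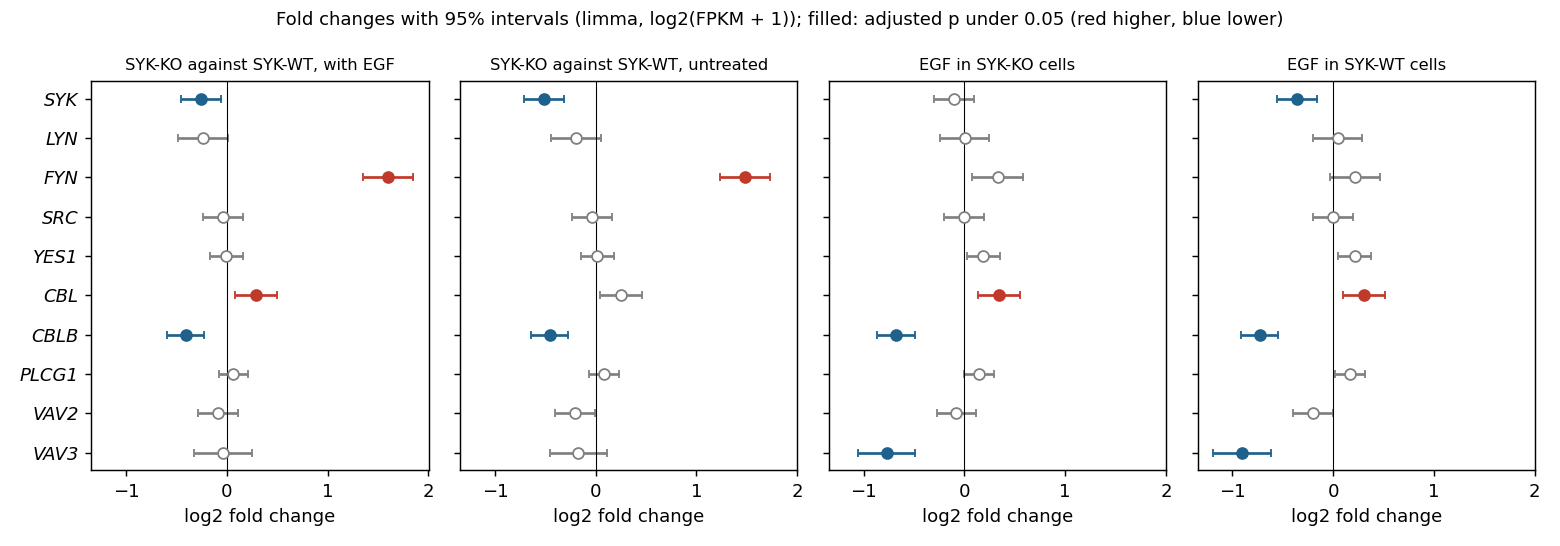
Log2 fold change of the 10 genes with 95% interval (horizontal bars) in 4 comparisons from limma on log2(FPKM + 1), n = 2 libraries per group; red points passed an adjusted p of 0.05 as higher, blue points as lower, and open points did not pass. FYN, at 1.48 and 1.60, is the farthest from 0 between genotypes, and CBLB and VAV3, at -0.68 to -0.91, are the farthest from 0 after EGF in both genotypes.

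The EGF comparisons asked how these genes stand after 24 h of receptor stimulation in each genotype. In both knockout and wild-type cells CBLB and VAV3 fell to 0.494 to 0.574 times their untreated mean FPKM, CBL rose modestly in both, and SYK fell in wild-type cells. SRC and LYN stayed close to their untreated levels.

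VAV3 (chr1:108113782-108537229, hg19), an exchange factor that acts downstream of receptor tyrosine kinases, was at 5.98 and 6.88 FPKM in SYK-KO EGF, 6.52 and 6.69 FPKM in SYK-WT EGF, 10.9 and 12.5 FPKM in SYK-KO and 15.0 and 11.7 FPKM in SYK-WT. The 4 treated libraries lay far below the 4 untreated ones, whatever the genotype. VAV3 fell with EGF by a log2 fold change of -0.77 ± 0.124 in SYK-KO cells (limma adjusted p = 0.00786) and -0.91 ± 0.124 in SYK-WT cells (limma adjusted p = 0.00212), and treated means were 0.550 and 0.494 times the untreated ones. The SYK-KO call ended when SYK-KO replicate 2 (adjusted p = 0.0770) or SYK-KO EGF replicate 1 (0.0732) was left out. For SYK-WT cells the authors' deposited table lists a q-value of 0.000583. The locus overlaps VAV3-AS1 and MIR7852, whose reads cannot be told apart from those of VAV3 without strand.

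CBLB fell with EGF by a log2 fold change of -0.68 ± 0.080 in SYK-KO cells (limma adjusted p = 0.00227) and -0.73 ± 0.080 in SYK-WT cells (limma adjusted p = 0.000858), with treated means at 0.574 and 0.566 times the untreated ones. All treated libraries of either genotype lay below the untreated ones, and no alternative run ended these calls. CBL rose with EGF by 0.34 ± 0.090 in SYK-KO cells (limma adjusted p = 0.0472) and 0.31 ± 0.090 in SYK-WT cells (limma adjusted p = 0.0405). Each CBL call ended under 9 of 15 alternatives, with adjusted p up to 0.238 in SYK-KO cells and up to 0.190 in SYK-WT cells, and the authors' deposited table lists a q-value of 0.0927 for CBL in SYK-WT cells. SYK fell in SYK-WT cells by -0.36 ± 0.086 (limma adjusted p = 0.0191), both treated libraries being lower, while in SYK-KO cells its libraries overlapped and the difference was -0.10 (limma adjusted p = 0.495). The SYK call in SYK-WT cells ended under 4 alternatives, among them without SYK-WT EGF replicate 1 (adjusted p = 0.0720) or 2 (0.121).

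Of the Src kinases, none passed the test for EGF. YES1 was read at 27.3 and 26.0 FPKM in SYK-KO EGF, 26.2 and 27.4 FPKM in SYK-WT EGF, 22.9 and 23.6 FPKM in SYK-KO and 24.1 and 21.8 FPKM in SYK-WT. All 4 treated YES1 libraries lay above all 4 untreated ones, by 0.19 in SYK-KO cells and 0.22 in SYK-WT cells on the log2 scale (limma adjusted p = 0.131 and 0.0576), and YES1 passed in SYK-WT cells when SYK-WT replicate 1 was left out (0.0102). In SYK-KO cells YES1 passed without either SYK-WT library (0.0369 and 0.0368) and with quality weights (0.0350). FYN likewise had its treated libraries at or above its untreated ones within each genotype, by 0.33 in SYK-KO cells and 0.21 in SYK-WT cells on the log2 scale (limma adjusted p = 0.0913 and 0.180), and it passed in SYK-KO cells under 4 alternatives and in SYK-WT cells without SYK-WT replicate 2 (0.0461). SRC differed by -0.00 and 0.00 with 95% intervals of -0.20 to 0.20 in both genotypes, and LYN by 0.00 and 0.04, on the log2 scale.

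PLCG1 was higher in every treated library than in every untreated one, by 0.15 in SYK-KO cells and 0.17 in SYK-WT cells on the log2 scale, without passing the test (limma adjusted p = 0.186 and 0.0902). VAV2 differed by -0.08 in SYK-KO cells, with overlapping libraries, and -0.20 in SYK-WT cells (limma adjusted p = 0.612 and 0.124), where it passed without SYK-WT replicate 1 (0.0255). Within the VAV family VAV3 made up 15.6% and 16.4% of the FPKM summed over VAV1, VAV2 and VAV3 in SYK-KO EGF, 16.8% and 16.6% in SYK-WT EGF, 23.2% and 25.8% in SYK-KO and 31.0% and 23.7% in SYK-WT. VAV1, best known from blood cells, had 14.3 and 15.0 FPKM in SYK-KO EGF and 12.2 and 13.2 FPKM in SYK-WT EGF. Untreated, it had 16.6 and 15.3 FPKM in SYK-KO and 11.5 and 12.8 FPKM in SYK-WT. All its knockout libraries lay above all wild-type ones, so the VAV3 share also moved with VAV1.

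**Figure D3:**
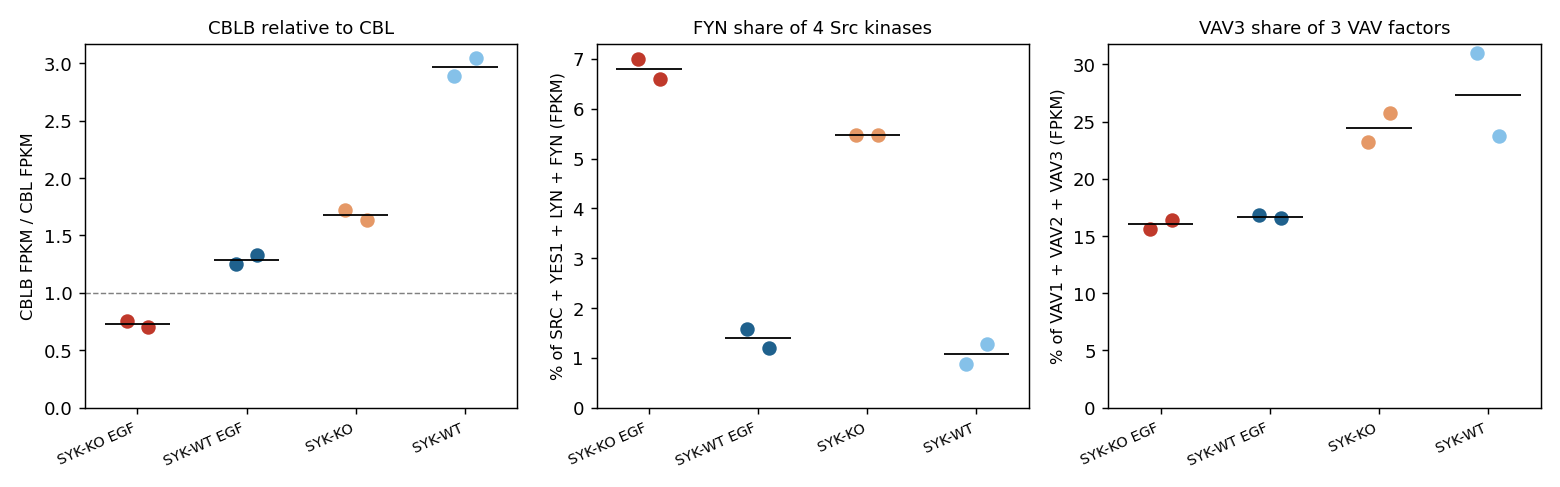
Ratios within each library (points, 2 per group, with the group mean as a line; all axes start at 0): CBLB over CBL FPKM with equality dashed, FYN as a percent of the FPKM of SRC, YES1, LYN and FYN, and VAV3 as a percent of the FPKM of VAV1, VAV2 and VAV3. CBLB over CBL is 0.700 and 0.754 in SYK-KO EGF and 2.88 and 3.05 in SYK-WT, FYN separates by genotype, and VAV3 is at 15.6% to 16.8% in the treated libraries and 23.2% to 31.0% in the untreated ones.

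EGF raised 1 and lowered 2 of the 10 genes in SYK-KO cells, where 11.8% of all loci were called (6.67% rose and 5.13% fell), and raised 1 and lowered 3 in SYK-WT cells, where 26.7% were called (14.7% rose and 12.1% fell). Their median log2 fold change was -0.00 in SYK-KO cells and 0.02 in SYK-WT cells, beside 0.00 and 0.01 over all loci tested. Which genotype had more loci called for EGF depended on the fit. With the groups of each genotype fitted alone, 2646 loci were called for knockout cells and 1254 for wild-type cells. With quality weights these counts were 3024 and 1877. The other pseudocount, no filter, equalised medians and the replicate block kept the order of the main fit. The cause of the reversal was not tested. The response itself was compared between the genotypes by the interaction of the 4-group fit. None of the members had an unadjusted limma p under 0.05 in that test, beside 1070 of all 12112 loci. After adjustment no member passed it, where 0.00826% of all loci (1 of 12112) were called. That count moved with the SYK-WT libraries, with 877 loci called without SYK-WT replicate 1 and 50 without replicate 2, and no member was called in either case. SYK came nearest, with a response 0.26 ± 0.122 higher in SYK-KO than in SYK-WT cells on the log2 scale (95% interval -0.02 to 0.54, limma adjusted p = 0.593). For CBLB the interval of the difference was -0.21 to 0.31 and for VAV3 -0.27 to 0.54. The EGF and genotype comparisons share libraries, so their values are not independent of each other.

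A further 75 genes of the pathway, in 6 lists, set these members in context, and 54 of them were tested. The lists, too, were chosen with earlier results of these data known. In knockout against wild-type cells 11 rose and 20 fell untreated (57.4% of the 54, beside 40.5% of all loci), and 10 rose and 18 fell with EGF (51.9%, beside 43.6%). With EGF treatment 11 rose and 1 fell in SYK-KO cells (22.2%, beside 11.8% of all loci), and 17 rose and 5 fell in SYK-WT cells (40.7%, beside 26.7%). The order of these shares also turned with the fit. With the groups of each genotype fitted alone, 17 of the 54 were called for knockout cells and 6 for wild-type cells. With quality weights the counts were 22 and 11. None of the 54 was called for the difference of the responses by limma, and 3 had an unadjusted p under 0.05, beside 1070 of all 12112 loci.

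Of 8 other Src-related and SYK-family kinases, 3 were tested, and ZAP70, the close relative of SYK, did not pass the filter on low values. PTK6, an epithelial kinase related to Src, had 13.2 and 12.6 FPKM in SYK-KO EGF, 45.8 and 44.0 FPKM in SYK-WT EGF, 9.90 and 9.16 FPKM in SYK-KO and 33.8 and 39.4 FPKM in SYK-WT. Its knockout libraries were far below the wild-type ones in both settings, with log2 fold changes of -1.83 ± 0.085 untreated (limma adjusted p = 9.82e-06) and -1.72 ± 0.085 with EGF (limma adjusted p = 1.19e-05). SRMS, its neighbour on chromosome 20 and a kinase of the same branch, was lower by -0.95 untreated and -0.89 with EGF on the log2 scale. EGF raised PTK6 by 0.40 in SYK-KO cells and 0.29 in SYK-WT cells, calls that ended under 4 and 11 of 15 alternatives.

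Regulators of Src kinases and SYK were called in 3 of 12 tested genes between genotypes untreated (1 rose, 2 fell) and in 2 with EGF (1 rose, 1 fell). These were 25.0% and 16.7% of the list, beside 40.5% and 43.6% of all loci. SH3KBP1, which binds CBL and acts in the uptake of receptors, had 16.0 and 16.6 FPKM in SYK-KO EGF, 8.67 and 8.81 FPKM in SYK-WT EGF, 14.0 and 14.3 FPKM in SYK-KO and 6.45 and 7.17 FPKM in SYK-WT. All its knockout libraries lay above all wild-type ones, by 0.96 untreated and 0.83 with EGF on the log2 scale. PTPN1, a tyrosine phosphatase of the endoplasmic reticulum that acts on receptor kinases and Src, was lower by -0.45 and -0.41. CSK, the kinase that switches off Src kinases, was not called in any comparison. With EGF, 2 of the 12 (16.7%) rose in each genotype and 0 fell. Of all loci, 6.67% rose and 5.13% fell in SYK-KO cells, and 14.7% rose and 12.1% fell in SYK-WT cells. PTPN12, a phosphatase of adhesion proteins, rose in both genotypes.

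Of 16 adaptors and scaffolds 12 were tested, and LAT, LCP2, BLNK and LAT2, the adaptors of lymphoid and myeloid cells, were not. Between genotypes 3 rose and 6 fell untreated, and 3 rose and 4 fell with EGF, which was 75.0% and 58.3% of the list, beside 40.5% and 43.6% of all loci. GAB2, a scaffold for SHP2 and PI3-kinase, had 4.77 and 5.01 FPKM in SYK-KO EGF, 2.34 and 2.61 FPKM in SYK-WT EGF, 3.35 and 3.36 FPKM in SYK-KO and 1.11 and 1.03 FPKM in SYK-WT. Its 4 groups did not overlap, and it was higher in knockout cells by 1.08 untreated and 0.76 with EGF, and after EGF by 0.44 in SYK-KO cells and by 0.75 in SYK-WT cells, on the log2 scale. SH3BP2, an adaptor that binds SYK, VAV proteins and phospholipase C gamma, went the other way, at 0.708 and 0.818 FPKM in SYK-KO EGF, 2.98 and 2.82 FPKM in SYK-WT EGF, 0.611 and 0.681 FPKM in SYK-KO and 2.72 and 3.23 FPKM in SYK-WT. SH3BP2 reached 1 FPKM in its wild-type libraries alone, so it entered the fit through the group where it was high. It is among the genes counted above as lower. Its log2 differences of -1.27 untreated and -1.15 with EGF, understated at such low levels, are given as a description. The adaptor CRK was lower by -0.60 and -0.51, and EGF lowered PIK3AP1, the B-cell adaptor for PI3-kinase, by -0.82 in SYK-WT cells. PIK3AP1 was not called for EGF in SYK-KO cells, where both treated libraries (4.91 and 6.01 FPKM) also lay below both untreated ones (6.98 and 8.47 FPKM).

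Among 15 tested effector enzymes and exchange factors, 5 rose and 2 fell between genotypes untreated, and 4 rose and 4 fell with EGF. These shares of 46.7% and 53.3% were near those of all loci, 40.5% and 43.6%. MALT1, the protease of the CARD-BCL10-MALT1 complex, had 4.96 and 4.65 FPKM in SYK-KO EGF, 2.14 and 2.42 FPKM in SYK-WT EGF, 3.31 and 3.80 FPKM in SYK-KO and 1.70 and 1.73 FPKM in SYK-WT. Its range overlaps another listed locus without a symbol. MALT1 was higher in every knockout library, by 0.75 untreated and 0.83 with EGF on the log2 scale. Its partner BCL10, which overlaps BCL10-AS1, had 30.0 and 25.0 FPKM in SYK-KO EGF, 38.0 and 37.3 FPKM in SYK-WT EGF, 12.9 and 11.7 FPKM in SYK-KO and 13.6 and 12.1 FPKM in SYK-WT. EGF raised BCL10 by 1.09 in SYK-KO cells and 1.48 in SYK-WT cells, and with EGF it was lower in knockout cells by -0.44 on the log2 scale. CDC42, a small GTPase of cell polarity, was lower in knockout cells by -0.52 untreated and -0.48 with EGF, and the kinase PRKCD, an effector of diacylglycerol, by -0.49 and -0.58. EGF raised 3 of the 15 in SYK-KO cells and raised 7 and lowered 1 in SYK-WT cells (20.0% and 53.3%, beside 11.8% and 26.7% of all loci), PIK3CD (a catalytic subunit of PI3-kinase, at a locus that overlaps CLSTN1 and antisense transcripts) by 0.53 and 0.51.

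All 12 Src substrates of the last list were tested, proteins of adhesions and the cell cortex together with the transcription factor STAT3. Between genotypes 2 rose and 8 fell untreated, and 2 rose and 7 fell with EGF, where 20.3% and 21.1% of all loci rose and 20.2% and 22.5% fell. The list's median log2 difference was -0.29 and -0.31, beside -0.01 and -0.02 over all loci. EZR, which links membrane to actin and overlaps EZR-AS1, had 399.7 and 403.1 FPKM in SYK-KO EGF, 696.7 and 687.3 FPKM in SYK-WT EGF, 365.1 and 368.2 FPKM in SYK-KO and 558.1 and 626.2 FPKM in SYK-WT. Its log2 fold change in knockout cells was -0.69 untreated and -0.78 with EGF, and ARHGAP35, a GTPase-activating protein, was lower by -0.75 and -0.66. TNS3, a tensin of cell adhesions, moved in the other direction by genotype and fell with EGF. It had 5.25 and 6.86 FPKM in SYK-KO EGF, 1.81 and 2.26 FPKM in SYK-WT EGF, 10.7 and 12.8 FPKM in SYK-KO and 4.70 and 6.40 FPKM in SYK-WT. TNS3 was higher in knockout cells by 0.97 untreated and 1.21 with EGF, and EGF lowered it by -0.86 in SYK-KO cells and -1.10 in SYK-WT cells, on the log2 scale. EGF raised BCAR1, an adhesion scaffold phosphorylated by Src, by 0.52 in SYK-KO cells and 0.47 in SYK-WT cells, and STAT3 by 0.27 and 0.44. Values in these 6 lists without an adjusted p beside them, SH3BP2 apart, were called at 0.05 by limma. In SYK-KO cells the EGF calls of GAB2, PIK3CD, PTPN12 and STAT3 ended when either SYK-KO or either SYK-KO EGF library was left out. The TNS3 call ended without the treated replicate 1, without the untreated replicate 2, or without the filter on low values (limma adjusted p = 0.0516). Those of PTPN12 and STAT3 also ended without either SYK-WT EGF library. In SYK-WT cells the EGF call of PTPN12 ended without either SYK-WT EGF library (up to 0.108) and that of PIK3CD without replicate 2 (0.0782). The lower BCL10 in knockout cells with EGF was not called without SYK-WT EGF replicate 1 (0.0557) or SYK-KO EGF replicate 2 (0.0592). The other genotype values given for these lists kept their calls under every alternative run.

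**Figure D4:**
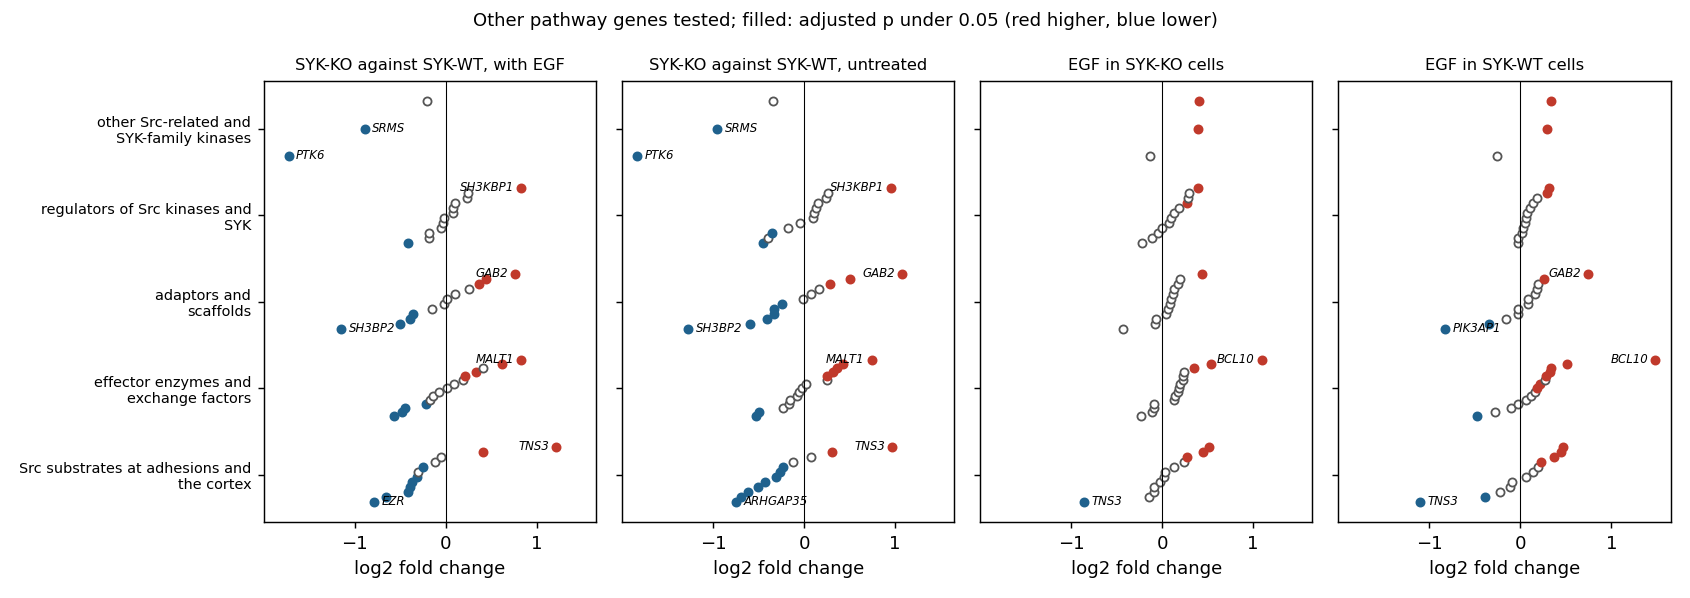
Log2 fold changes from limma on log2(FPKM + 1) for the 54 tested genes of the pathway lists in 4 comparisons (1 point per gene, stacked within its list by size); red points passed an adjusted p of 0.05 as higher, blue points as lower, open points did not pass. On this scale, which understates the change of low genes such as SH3BP2, PTK6 at -1.83 and -1.72 is farthest left between genotypes. BCL10 at 1.09 and 1.48 is farthest right after EGF.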

How the data were processed

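The deposited values are the authors' FPKM for each library and locus, from TopHat, Cufflinks and Cuffdiff 2.2.1.3 on hg19, per the submitters' processing notes. Parameters, library scaling and strand were not given in the sources used here. The q-values quoted are those of the authors' deposited table of p-values and q-values, per the file headers. Groups came from the sample titles. Locus coordinates are those of the deposited table, shown 1-based. Symbols were matched for 27541 of 27757 loci through RefSeq and GENCODE accessions. Guides were matched to GENCODE 29 transcripts of GRCh38.

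FPKM are not counts, so log2(FPKM + 1) of the 12112 loci that reached 1 FPKM in 2 or more libraries was fitted with limma 3.58.1 (R 4.3.3), with a mean-variance trend and the 4 groups sharing the spread (4 residual and 3.87 prior degrees of freedom). P-values were two-sided and Benjamini-Hochberg adjusted over all loci of a contrast, with a threshold of 0.05; percentages called use the same rule. The fit was tested on simulated data. Depth was estimated from the step that 1 fragment makes in values up to 0.5 FPKM. Alternatives were another pseudocount, no filter, equalised medians, fewer groups, quality weights, a replicate block, the authors' q-values and leaving out each library. Pathway genes were named as up to 3 per list and comparison by smallest adjusted p; CSK, CBLC, VAV1, the single marker genes and the genes named as untested were chosen after their values were seen. The 10 members and the lists were chosen with earlier results of these data known. Tables and plots used python 3.11.15, pandas 2.3.3 and matplotlib 3.10.9.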

Additional observations from a re-analysis of the deposited data

How the results depend on the processing

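With 2 libraries per group, counts of calls depended on which libraries informed the spread, and small changes of CBL and SYK lay near the threshold. Of 770 values of members under alternatives, 678 kept direction and side of the threshold, 40 lost the call, 21 gained one and 31 changed sign, all 31 in differences that were not called. The authors' q-values among these were compared by side of the threshold alone. CBLB between genotypes and with EGF, SYK between untreated genotypes and VAV3 with EGF in SYK-WT cells kept their calls under every alternative run. FYN between genotypes is given as a description alone. The cause of the other changes was not tested. FPKM carry no count error, and FYN in wild-type cells is the member with the fewest estimated fragments.

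Members called for EGF in SYK-WT cells numbered 4, with 2 when only those groups were fitted, 2 with quality weights and 2 to 6 leaving out a library (2 without either SYK-WT EGF library). Pathway genes numbered 22, with 6, 11 and 8 (authors' q-values) and 7 to 23; all loci 3238, with 1254, 1877 and 1843 and 1249 to 5084. For EGF in SYK-KO cells, members numbered 3, with 5 under weights and 1 to 5 (1 without replicate 2 of SYK-KO or replicate 1 of SYK-KO EGF, 5 without either SYK-WT library). Pathway genes numbered 12, with 22 and 2 to 20; all loci 1429, with 2646 from those groups alone, 3024 under weights and 316 to 2994. Between untreated genotypes, members numbered 3, and 3 to 5 leaving out a library (5 without either SYK-WT library). Pathway genes numbered 31, with 20 by the authors' q-values and 19 to 35; all loci 4902, with 3007 from those groups alone, 2609 by the authors' q-values and 2480 to 5915. With EGF, members numbered 4, with 2 without a filter, 2 by the authors' q-values and 2 to 5 (2 without replicate 2 of SYK-KO EGF, or without either library of SYK-KO or of SYK-WT EGF). Pathway genes numbered 28, with 21 to 35, and all loci 5277, with 2911 by the authors' q-values and 2940 to 6820. For the difference of responses, 0 members were called throughout, 0 to 3 pathway genes (3 without SYK-WT replicate 1), and 1 locus, with 2 without a filter, 2 under weights and 0 to 877 leaving out a library (877 without SYK-WT replicate 1).

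Replicate numbers gave no pairing shared by all groups: the correlation of deviations was 0.161 to 0.270 among SYK-WT, SYK-KO and SYK-KO EGF, and -0.381 to -0.161 between SYK-WT EGF and each of these. With the replicate number as a block, members called were 4 and 2 for EGF in SYK-WT and SYK-KO cells, 4 and 5 between genotypes untreated and with EGF, and 0 for the difference. The block added VAV2 untreated (adjusted p = 0.0358) and LYN with EGF (0.0460) between genotypes and ended the EGF call of CBL in SYK-KO cells (0.0544). Pathway genes were then 24, 13, 31, 30 and 0, and all loci 3624, 1653, 5261, 5688 and 1. Crossing the numbers of SYK-WT EGF in the block, chosen after seeing the data, gave 3, 2, 3, 4 and 0 members, and 2 loci for the difference.

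Among the uncalled differences that changed sign, equalised medians gave -0.0049 for LYN with EGF in SYK-KO cells, and a pseudocount of 0.1 FPKM gave -0.021 for FYN in the difference of responses. Leaving out a library, the EGF response ran from -0.087 to 0.091 for LYN and -0.031 to 0.026 for SRC in SYK-KO cells, and from -0.097 to 0.18 for LYN and -0.12 to 0.12 for SRC in SYK-WT cells. Between genotypes the difference ran from -0.16 to 0.081 for SRC and -0.052 to 0.087 for YES1 untreated, and from -0.043 to 0.026 for YES1 and -0.12 to 0.052 for VAV3 with EGF. The difference of responses ran from -0.18 to 0.099 for LYN, -0.0060 to 0.24 for FYN, -0.12 to 0.12 for SRC, -0.096 to 0.043 for YES1, -0.049 to 0.12 for CBL, -0.020 to 0.12 for CBLB, -0.083 to 0.043 for PLCG1 and -0.034 to 0.30 for VAV3.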
